A study of Homo sapiens with 2 samples.

Results

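The genes examined are 10 components of the human nuclear envelope, namely the lamin genes LMNA, LMNB1 and LMNB2, the inner membrane protein genes NEMP1, LBR, EMD and TMPO, and SUN1, SUN2 and SYNE2 of the complex that ties the nucleus to the cytoskeleton. They are 10 of 19775 genes with a probe set named for 1 gene on the array, and are read by 27 of 54613 probe sets. NEMP1, also written TMEM194A, was chosen by its large measured fall on these same arrays. Its values are therefore a description, and the others joined it by function. One Affymetrix U133 Plus 2.0 array was hybridized with RNA from U87 cells, a line derived from a human glioblastoma, transfected with a control siRNA, and 1 with RNA from U87 cells transfected with HOXD9 siRNA-2. Each siRNA was given at 50 nM with Lipofectamine RNAiMAX to cells seeded 48 h earlier by the sample labels (the general transfection protocol gives a shorter interval), and RNA was taken on Day 2. The comparison asks which transcripts differ after the homeobox gene HOXD9 is silenced. With 1 array per condition and 1 siRNA sequence against HOXD9, no SD, p-value or test between conditions is possible, and less RNA per cell cannot be told apart from fewer cells that make it.

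The nuclear envelope consists of an outer and an inner membrane, and the inner one rests on the lamina, a meshwork of lamin filaments. Proteins of the inner membrane bind lamins and chromatin, and SUN proteins join nesprins across the envelope to form the LINC complex, which passes mechanical force to the nucleus. In dividing cells the envelope and the lamina are taken apart at mitosis and rebuilt around the daughter chromosomes. Deformable nuclei and altered lamin levels are widely studied in invasive tumors, including glioblastoma.

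Signals are the deposited linear intensities, and each ratio is the log2 of the HOXD9 siRNA signal divided by the control signal. The arrays differed in their medians, of 22.5 (control siRNA) and 18.3 (HOXD9 siRNA). The median log2 ratio of 11624 genes above the signal filter, a mean signal of at least 19.8, was -0.25, and centering each array on its median adds 0.30 to every ratio. HOXD9 itself was near background, with signals of 19.7 and 5.58 on one probe set and 9.33 and 11.4 on the other. Background was set at 18.4, the highest signal of 27 Bacillus subtilis control probe sets on either array. Against it the first HOXD9 probe set was at least 1.07-fold lower as deposited, with no bound after centering (0.870), so these arrays give little check of the knockdown. GAPDH had log2 ratios from -0.03 to -0.02 on its 3 probe sets, or 0.27 to 0.28 after centering. The mesenchymal markers VIM, CD44 and FN1 were well above the filter, whereas no probe set of the astrocyte markers GFAP and S100B passed it. There is no replicate error, and the only spread to set a ratio against is technical. Where a gene had several probe sets, their log2 ratios scattered with a pooled SD of 0.41 (6081 genes). With probe sets split into 3 equal groups by signal, it was 0.57 for the dim, 0.33 for the middle and 0.25 for the bright ones. This spread says nothing of how 2 cultures would differ.

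All 10 genes had a probe set above the filter, and 21 of their 27 probe sets passed it. NEMP1 was the only one of the 10 genes lower by more than 2-fold on its brightest probe set, and none was higher. When the brightest was taken on the control siRNA array alone, a setting chosen after the data were seen, TMPO joined it. Under that setting 624 of all 11624 genes were lower and 57 higher. With the brightest taken by mean signal, 4.95% of all genes were lower and 0.516% higher by this threshold, or 2.31% and 1.17% with centered arrays. Of the 21 probe sets, 3 were more than 2-fold lower, 2 of NEMP1 and 1 of TMPO, and none was higher. The shares of all 27307 probe sets were 6.69% and 0.615%. The 2 of NEMP1 follow from how that gene was chosen, which leaves the 1 of TMPO to set beside these shares. The same 3 were past 2-fold after centering, against 2.94% lower and 1.51% higher overall. Apart from NEMP1, the median log2 ratio of the other 9 genes was -0.38, or -0.076 after centering, beside -0.25 and 0.05 for all genes.

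**Figure D1:**
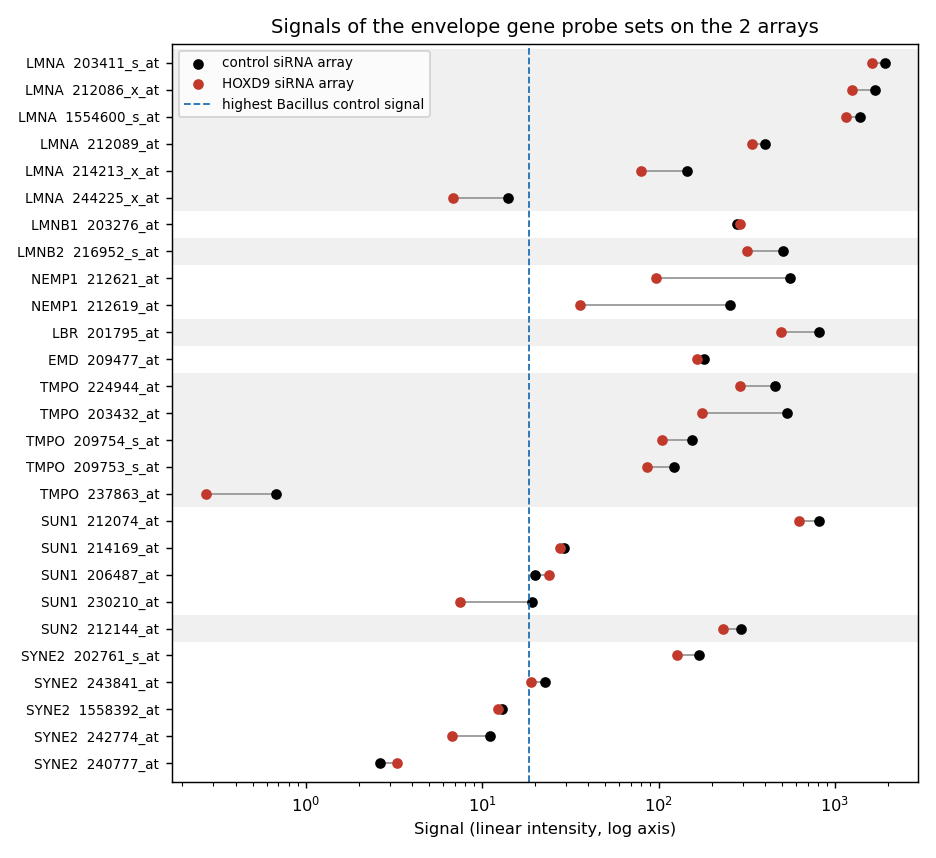
Signals of the 27 probe sets (y axis, grouped by gene) on the control siRNA array (black) and the HOXD9 siRNA array (red) are plotted on a logarithmic x axis. The dashed line marks 18.4, the highest signal of the Bacillus control probe sets. The widest gaps above this line belong to both NEMP1 probe sets and to 1 of TMPO.

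NEMP1 encodes a multipass protein of the inner nuclear membrane that has been linked to the stiffness of the nuclear envelope in germ cells. Its brighter probe set read 557.9 in control siRNA-transfected cells but 97.0 after HOXD9 siRNA-2. On the dimmer one it was 253.4 and 35.9. Both HOXD9 siRNA signals stayed above the background of 18.4, so both ratios were measured at each end. The log2 ratios were -2.52 and -2.82, that is 17.4% and 14.2% of the control signal. They differed from each other by 0.30, and 47.1% of 3209 genes with 2 probe sets above the filter differed by as much. With centered arrays they were -2.22 and -2.52, and removing a signal-dependent trend left NEMP1 past 2-fold.

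Among all genes the brighter probe set of NEMP1 ranked 30 from the lowest of 11624. By the median over probe sets, -2.67, NEMP1 ranked 3 of 6081 genes with 2 or more. The genes nearest to it in this median were EMP1 (-2.76 over 6 probe sets), LHFPL6 (-2.79 over 2) and PTPN1 (-2.50 over 2), which differ from it by 0.09, 0.12 and 0.17. This likeness rests on 2 arrays. NEMP2, the paralog of NEMP1, was dim, with signals of 32.8 and 29.9 on its 1 probe set and a log2 ratio of -0.13.

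TMPO encodes the LAP2 proteins, which carry a LEM domain and bind chromatin and lamins, and several isoforms arise by splicing. Its 4 probe sets above the filter did not move alike. The brightest on the control siRNA array had a control signal of 531.6 and a HOXD9 siRNA signal of 176.2, which is 33.1% of the control level (log2 ratio -1.59). The brightest by the mean of both arrays went from 456.9 to 289.9, a log2 ratio of -0.66. The other two gave signals of 153.8 and 104.8, and of 122.4 and 85.5, with log2 ratios of -0.55 and -0.52. All 4 were thus lower than the median of all genes, but 1 alone passed 2-fold. The range of 1.08 between them was reached by 17.5% of 726 genes with 4 probe sets above the filter. The annotation used here does not say which LAP2 isoform a probe set reads, and the part of splicing in this difference was not tested. The fifth probe set had signals under 1, within the background.

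The sequences before the starts of NEMP1 and TMPO are shown because these are the genes of the 10 with a probe set past 2-fold. Each is the 250 bases before the start in the RefSeq promoter table of GRCh38.p14, 5′ to 3′ on the strand of the gene, for NEMP1 at chr12:57078792-57079041 (minus strand) and for TMPO at chr12:98515323-98515572 (plus strand). Capitals mark matches on either strand to motifs of the cell cycle factors E2F (TTTCCCGC), NF-Y (CCAAT) and the CHR element (TTTGAA or TTCGAA), and to TTTAT, a core favored by posterior HOX proteins. No matches overlap in these 2 windows.
NEMP1: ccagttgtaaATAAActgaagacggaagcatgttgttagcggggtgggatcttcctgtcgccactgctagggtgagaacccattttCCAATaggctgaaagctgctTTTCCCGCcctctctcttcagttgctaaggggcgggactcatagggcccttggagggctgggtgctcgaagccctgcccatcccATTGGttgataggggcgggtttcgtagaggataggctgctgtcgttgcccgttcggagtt
TMPO: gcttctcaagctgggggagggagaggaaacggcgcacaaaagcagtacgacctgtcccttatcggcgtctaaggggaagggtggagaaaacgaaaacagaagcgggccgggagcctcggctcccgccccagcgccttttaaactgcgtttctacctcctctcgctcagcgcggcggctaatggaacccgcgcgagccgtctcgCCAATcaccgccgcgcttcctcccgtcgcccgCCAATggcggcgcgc

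In the NEMP1 window TTTCCCGC began 144 bases before the start, CCAAT matches lay at 164 and 60 and the reverse complement of TTTAT at 240. The TMPO window held 2 CCAAT matches, at 47 and 15. The table holds 17 windows for 9 of the 10 genes, of which the TMPO pair overlap (the one listed first is shown), and none was matched to SUN1. TTTCCCGC was found in 2 of the 17 (NEMP1 and LMNA) and in 1.39% of all 35116 windows of this length. CCAAT was found in 8 against 32.0%, TTTGAA in 2 against 13.3%, TTCGAA in 0 against 1.19% and TTTAT in 4 against 32.7%. A match is a run of letters, not a bound site.

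LBR, the lamin B receptor, anchors heterochromatin to the lamina and also has sterol reductase activity. Its single probe set had a control signal of 807.3 and a HOXD9 siRNA signal of 492.0, which is 60.9% of the control level (log2 ratio -0.71). EMD encodes emerin, the LEM-domain protein lost in a form of Emery-Dreifuss muscular dystrophy. Its signals were 180.9 and 165.1, a log2 ratio of -0.13. Relative to the median of all genes, LBR stood 0.46 lower and EMD 0.12 higher on the log2 scale. Counted from the lowest of 11624 genes, LBR ranked 1392 and EMD 7827. Neither passed 2-fold, and with a single probe set neither has an internal check.

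The lamins did not share one value. LMNA encodes the A-type lamins A and C, which stiffen the nucleus. Its brightest probe set had signals of 1909 and 1625, a log2 ratio of -0.23. Of the other four above the filter, 3 had log2 ratios from -0.44 to -0.24 and the dimmest (144.8 to 79.3) -0.87. The brightest LMNA probe set differed from the median of all genes by 0.02. A sixth probe set lay within the background on both arrays.

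LMNB1 and LMNB2 encode the B-type lamins, which stay attached to the membrane by a lipid anchor, and loss of lamin B1 is widely used as a mark of senescent cells. LMNB1 had signals of 277.6 and 290.7, a log2 ratio of 0.07, and was the only one of the 10 genes whose brightest probe set read higher on the HOXD9 siRNA array as deposited, whereas with centered arrays LMNA (0.07) and EMD (0.17) did as well. LMNB2 had a control signal of 507.0 and a HOXD9 siRNA signal of 318.8, a log2 ratio of -0.67. The B-type lamins therefore stood on opposite sides of the median of all genes, LMNB1 0.32 higher and LMNB2 0.42 lower. Each has 1 probe set, and the difference between them was not tested.

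**Figure D2:**
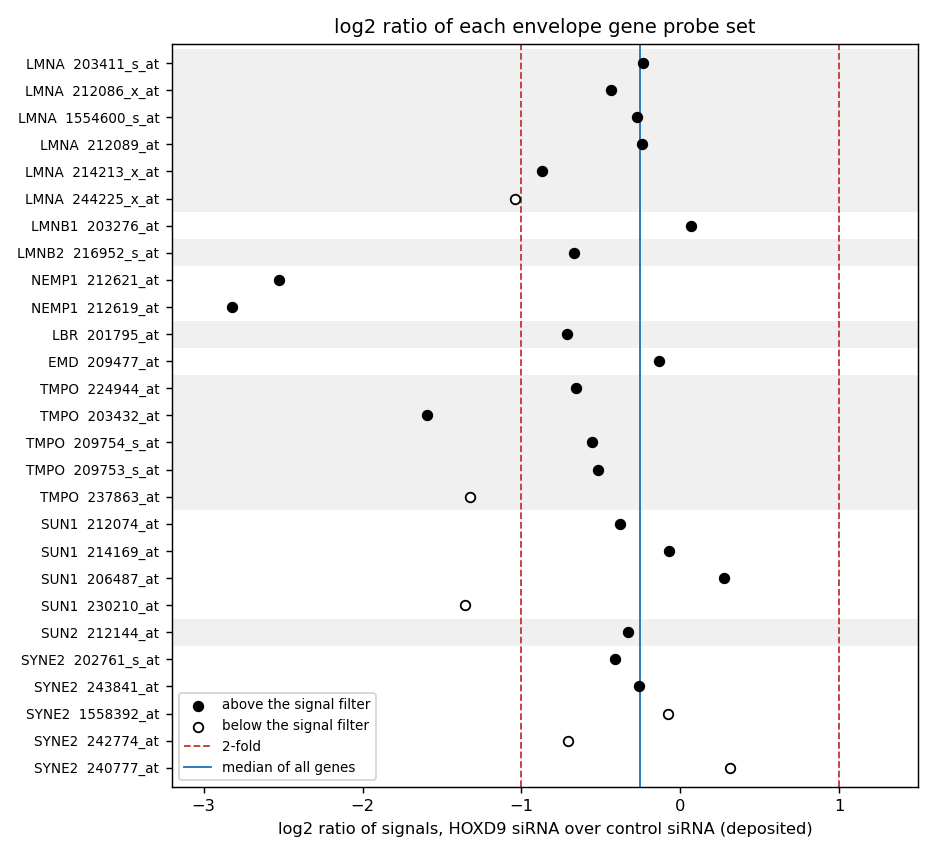
The log2 ratio of each probe set (x axis, HOXD9 siRNA over control siRNA, deposited signals) is plotted by gene (y axis), filled where it passed the signal filter and open where it did not. Dashed lines mark 2-fold and the blue line the median of all genes, -0.25. NEMP1 stands apart at -2.52 and -2.82, the TMPO probe sets spread from -1.59 to -0.52, and the remaining filled points lie between -0.87 and 0.27.

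SUN1 and SUN2 span the inner membrane and bind lamins inside the nucleus, and SYNE2 encodes nesprin-2, their partner in the outer membrane. The brightest SUN1 probe set had a control signal of 812.9 and a HOXD9 siRNA signal of 626.5, a log2 ratio of -0.38. SUN2 went from 292.4 to 233.2, a log2 ratio of -0.33. SYNE2 went from 168.5 to 126.8, a log2 ratio of -0.41. These 3 genes of the LINC complex thus lay close together and within 0.16 of the median of all genes. The dimmer SUN1 probe sets above the filter gave signals of 29.1 and 27.7 and of 19.8 and 23.99, with log2 ratios of -0.07 and 0.27. A further SYNE2 probe set gave 22.7 and 18.9, hardly above background. One SUN1 probe set fell below the filter at 19.2 and 7.49, which bounds it at 1.04-fold lower or more as deposited and gives no bound after centering (0.848). The other 3 SYNE2 probe sets lay within the background on both arrays.

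**Figure D3:**
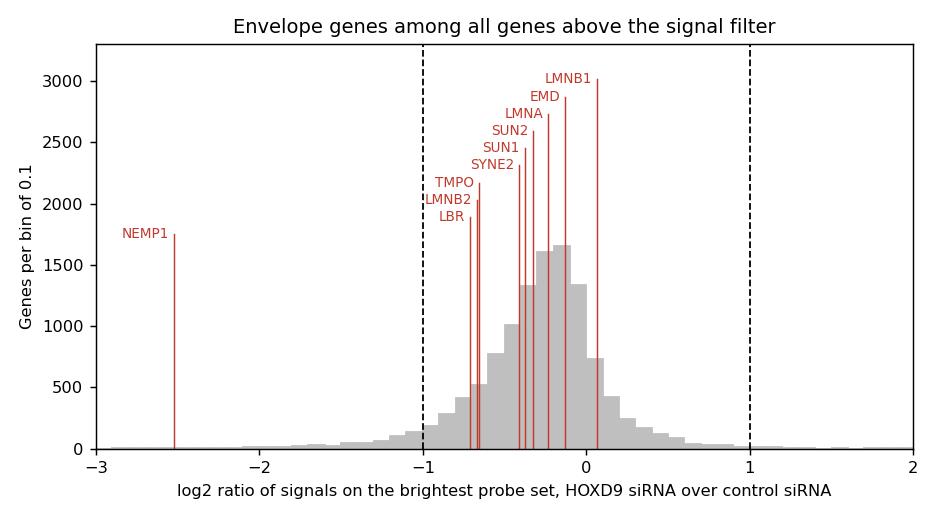
Gray bars count genes above the signal filter by the log2 ratio of their brightest probe set (x axis, HOXD9 siRNA over control siRNA, bins of 0.1, shown from -3 to 2, with 24 of 11624 genes outside). Red lines mark the lamina and envelope genes and dashed lines 2-fold, and line heights only separate the names. NEMP1 lies in the far lower tail at -2.52, whereas the other 9 lie within the bulk, from -0.71 for LBR to 0.07 for LMNB1.

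Further genes of the envelope were read from 4 lists. Of their 33 genes 29 passed the filter, 3 were lower by more than 2-fold (LEMD3, FNTB and SUN5) and none was higher, beside 4.95% and 0.516% of all genes. After centering LEMD3 was measured past 2-fold, FNTB had a ratio past it but a bound short of it, and SUN5 was not past it, beside 2.31% lower and 1.17% higher of all genes. The median log2 ratio of the 29 genes was -0.27, or 0.03 after centering. LEMD3, which encodes the LEM-domain protein MAN1 of the inner membrane, had a control signal of 315.0 and a HOXD9 siRNA signal of 114.3, a log2 ratio of -1.46 on its 1 probe set. With centered arrays it remained past 2-fold at -1.16. Beside it LEMD2, a related protein needed to reseal the envelope, had signals of 34.8 and 52.0 and a log2 ratio of 0.58. The LEM-domain protein genes named here, EMD, TMPO, LEMD2 and LEMD3, thus ranged from -1.46 to 0.58 on their brightest probe sets. The top value is from the dim probe set of LEMD2. The list of other envelope proteins that holds LEMD2 and LEMD3 had 10 measured genes and a median of -0.19.

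FNTB, the beta subunit of the enzyme that attaches the lipid anchor to B-type lamins and prelamin A, had signals of 38.3 and 12.5. Because 12.5 lay within the background, FNTB was at least 2.08-fold lower as deposited and at least 1.69-fold lower after centering. FNTA, the alpha subunit, gave a log2 ratio of -0.14 on its brightest probe set and a bound of at least 1.73-fold lower on a dim one, and ZMPSTE24, the protease that trims prelamin A, -0.17. The 6 genes of lamin processing had a median of -0.22, with NARF, which binds prelamin A, the highest at -0.07.

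SUN5, a SUN protein known from the testis, went from 55.1 to 26.1 in signal on the 1 of its 4 probe sets above the filter. The log2 ratio was -1.08, or -0.78 after centering. This is an _x_at probe set, and the others of SUN5 lay within the background on both arrays. The 8 measured genes of the list of LINC and torsin partners had a median of -0.27, with SPAG4, another SUN protein, the highest at 0.21. TOR1AIP1 and TOR1AIP2, the envelope cofactors of torsin ATPases, had log2 ratios of -0.61 and -0.76. Dimmer probe sets of TOR1AIP2 (-1.22) and of TMEM201 (-1.40), which encodes the inner membrane protein SAMP1, were also past 2-fold lower. After centering they stood at -0.92 and -1.10, and the TMEM201 one read 20.2 on the HOXD9 siRNA array, hardly above background. Of the 18 probe sets of this list above the filter 3 were past 2-fold lower as deposited and 1 after centering, beside 6.69% and 2.94% of all probe sets. Among 5 chromatin partners of the lamina no brightest probe set was past 2-fold, beside 4.95% of all genes lower, and the median was -0.31. Of their 13 probe sets above the filter 3 were past 2-fold lower as deposited, of CBX3 and CBX5, and 0 after centering, beside 6.69% and 2.94% of all probe sets. On their brightest probe sets the heterochromatin proteins CBX1, CBX5 and CBX3 had -0.93, -0.84 and -0.31, whereas BANF1, the chromatin protein that LEM domains bind, had -0.09.

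Since the lamina is rebuilt at each division, 12 cell cycle genes were set beside these lists. By their brightest probe sets 0 of the 12 were past 2-fold, beside 4.95% of all genes lower. Their median log2 ratio was -0.46 (-0.16 after centering), and 11 of 12 lay below the median of all genes. Of their 28 probe sets above the filter 4 were past 2-fold lower (MKI67, TOP2A, CCNB1 and MCM6, 1 each) and 2 after centering, beside 6.69% and 2.94% of all probe sets. The brightest probe sets ranged from MCM2, a replication helicase subunit, at -0.84 to AURKB, a mitotic kinase, at 0.01. On its brightest probe set each of the 10 genes lay inside this range except NEMP1, far below it, and LMNB1, just above at 0.07. The TMPO probe set at -1.59 lay below it, but it is not the brightest of TMPO by mean signal. Dimmer cell cycle probe sets also lay below the range, among them 1 of MKI67 at -1.61. The part of cell cycle differences in the envelope genes was not tested.

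**Figure D4:**
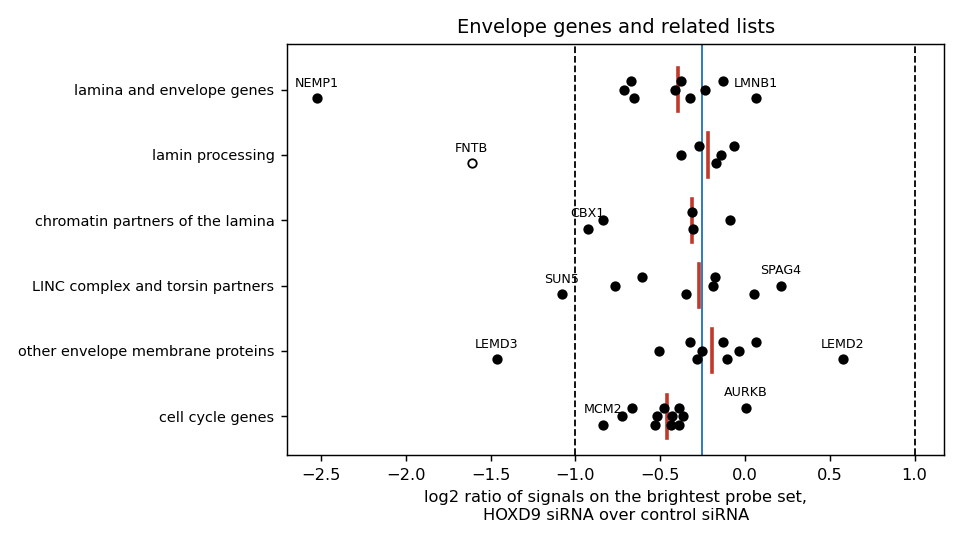
Points show single genes in 6 lists (y axis) by the log2 ratio of the brightest probe set (x axis, HOXD9 siRNA over control siRNA). Red bars mark list medians, the blue line the median of all genes and dashed lines 2-fold, and FNTB is drawn open because its HOXD9 siRNA signal lay within the background. NEMP1, FNTB, LEMD3 and SUN5 lie below -1, and the list medians lie between -0.46 and -0.19.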

How the data were processed

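Deposited by the authors were signal intensities on a linear scale, for 54675 probe sets on each of 2 arrays. The submitters' processing notes name GCOS, the methods name GeneSpring, and neither the scaling target nor detection calls were stated. From the deposited intensities log2 ratios were taken for 54613 probe sets, leaving out 62 controls. Names came from the platform annotation, updated by Entrez number to the RefSeq table of GRCh38.p14 (41037 probe sets matched), 1801 probe sets with several genes were not used for a gene, and 11721 were unlisted. The signal filter was the median of all mean signals, and a gene took its brightest probe set above it. The threshold was 2-fold. Where 1 signal lay within the background, a bound against 18.4 is given. The number of arrays limits the precision.

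The genes, lists, named-gene rule and motifs were chosen with earlier results of these data known. Named were all 10 genes, HOXD9, GAPDH, the 3 genes nearest to NEMP1 and, per list, genes past 2-fold with the lowest and the highest. Others were added after their values were seen (FNTA, ZMPSTE24, CBX3, CBX5, TOR1AIP1, TOR1AIP2, TMEM201, NEMP2, MKI67, TOP2A, CCNB1, MCM6, CD44, FN1, GFAP, S100B, TMPO-AS1, GET4 and chromosomal neighbors). Alternatives were centering, quantile normalization, loess (fraction 0.3), no filter, a stricter one of 75.7 (percentile 70), flooring low signals (percentile 20), a pseudocount of 16, no _x_at or _s_at probe sets, averaging over probe sets, and choosing the brightest on the control siRNA array. Procedures were tested on simulated data. Python 3.11.15, numpy 2.4.6, pandas 2.3.3, statsmodels 0.14.6 and matplotlib 3.10.9 were used.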

Additional observations from a re-analysis of the deposited data

How the results depend on the processing

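NEMP1, chosen for its fall, stayed more than 2-fold lower under all 10 alternatives. Its value of -2.52 was unchanged by either filter setting, the floor or leaving out _x_at and _s_at probe sets. Choosing the brightest on the control siRNA array did not change it either. Those settings are therefore no check of it. A gene value counted as moved when it changed by more than 0.41, the pooled SD between probe sets of one gene, and a list median when it changed by more than the standard error this SD gives for a median. For the other 9 genes 88 of 89 values changed by less, and LMNB2 gave none without _x_at and _s_at probe sets. The exception was TMPO, at -1.59 when the brightest probe set was taken on the control siRNA array alone, a setting chosen after the data were seen. With it 2 of the 10 genes were past 2-fold lower, beside 624 lower and 57 higher of all 11624 genes. Choosing by the control signal alone favors probe sets that read high on that array. Much of the count of 88 was fixed in advance. Centering adds 0.30 to every ratio, which is short of 0.41. Either filter setting and the floor returned the deposited value for each of the other 9 genes. For the 5 genes with 1 probe set above the filter, averaging and the choice of brightest did so as well. EMD changed sign, to between 0.17 and 0.19, under the 3 scalings. Without the signal filter 6 of the 27 probe sets were more than 2-fold lower, the added 3 lying below the filter. The share of all probe sets was not counted under this setting. By gene it gave 1 of the 10 lower, beside 3114 of all 19775 genes. The median of the other 9 genes was -0.076 after centering, -0.072 after quantile normalization and -0.090 after loess. In the same order, the medians were 0.032, 0.023 and 0.011 for LINC and torsin partners. They were 0.080, 0.028 and 0.022 for lamin processing, and 0.108, 0.090 and 0.085 for other envelope proteins. Chromatin partners moved to -0.014 after centering but less (-0.13) after quantile normalization and loess, and to -0.88 without _x_at and _s_at probe sets. That last median is of a changed list, because BANF1 had no probe set left. CBX3 was then read on a dim probe set with signals of 75.0 and 37.0 (log2 ratio -1.02). Of all 11624 genes 575 were lower and 60 higher as deposited, 268 and 136 after centering, 261 and 147 after quantile normalization, and 261 and 144 after loess. With the pseudocount the counts were 265 and 19 of 11624. Without the filter they were 3114 and 1766 of 19775, and with the stricter filter 210 and 0 of 8553. No paired analysis was possible because each condition has 1 array.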

Other observations

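The genes next to NEMP1 on its chromosome were read in the order of the RefSeq table, 3 protein-coding genes on each side. On their brightest probe sets above the filter NAB2 had a log2 ratio of -0.32, STAT6 -0.75, LRP1 -0.09 and ZBTB39 -0.63. TAC3, a tachykinin precursor gene, had signals of 52.5 and 14.4, the second within the background. It was at least 2.85-fold lower as deposited, a bound that centering makes smaller. The MYO1A signals of 11.9 and 13.6 lay within the background. For TMPO the same reading gave 0.22 for CDK17, -0.36 for NEDD1, -0.10 for SLC25A3, -0.26 for IKBIP and -0.24 for APAF1, and CFAP54 lay within the background. Dimmer probe sets of these neighbors above the filter ranged from -1.29 (SLC25A3) to 0.23 (IKBIP). The probe set of TMPO-AS1, which is transcribed from the other strand, had signals of 26.9 and 8.94, below the filter. Against the background it was at least 1.46-fold lower as deposited, and centering makes this bound smaller too.

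A probe set assigned to both SUN1 and GET4 gave signals of 75.4 and 72.1, a log2 ratio of -0.07. In the list of other cell types 4 of 9 genes passed the filter, and no probe set of PTPRC, CD3E, CDH5, RBFOX3 or MBP did. Past 2-fold lower was 1 of the 4, beside 4.95% of all genes. It was SYT1, a synaptic vesicle gene, which read 91.8 and 30.3 (log2 ratio -1.60), and KRT18 was the highest at 0.24. In the glial and mesenchymal list NES had the lowest log2 ratio, -0.72, and VIM the highest, -0.07.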
